A study of Saccharomyces cerevisiae with 44 samples.

Results

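The transcripts of 5 genes that restrain the mating pheromone pathway of the budding yeast Saccharomyces cerevisiae were measured by RNA sequencing: SST2 (YLR452C), MSG5 (YNL053W), AFR1 (YDR085C), PTP2 (YOR208W) and PTP3 (YER075C). They were taken by gene identifier from a table of 7127 annotated features. The choice rested on their known role and not on a cut-off on their values, but earlier results of these data were known. All 5 passed the filter on low counts in every fit. In wild-type cells 4 of them were higher with pheromone than without, and PTP3 was lower. Loss of the transcription factor Ste12 left SST2 at a small fraction of its level even without pheromone, while loss of its partner Kar4 reduced the pheromone response of MSG5 and AFR1 and not detectably that of SST2, PTP2 or PTP3.

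When alpha-factor binds its receptor Ste2 on a cell of mating type a, the G protein subunit Gpa1 releases its partners Ste4 and Ste18, a kinase cascade activates the MAP kinases Fus3 and Kss1, and Ste12 turns on mating genes at pheromone response elements. The pathway also raises several of its own inhibitors, so that a cell that does not mate can recover. Sst2 is the regulator of G protein signalling that speeds GTP hydrolysis by Gpa1, and Afr1 promotes adaptation at the level of the receptor and is needed for mating projections of normal shape. Msg5 is a dual-specificity phosphatase that inactivates Fus3 and the cell-wall integrity kinase Slt2. Ptp2 and Ptp3 are tyrosine phosphatases that act on Fus3 and on the osmotic stress kinase Hog1, with Ptp2 mostly nuclear and Ptp3 mostly cytoplasmic.

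All strains were MATa ade1 bar1 cln1 cln2 cln3 his2 trp1 ura3 with CLN3 under a galactose promoter at LEU2: ACY01 carried kar4::KanMX (kar4Δ), ACY02 ste12::KanMX (ste12Δ), ACY13 ime4::KanMX (ime4Δ, which lacks an mRNA methyltransferase), and VM05 was the strain called WT here. Growth at 30 °C in galactose was followed by 3 h in glucose, which takes away the last G1 cyclin and holds cells in G1, and cells then received 20 µM alpha-factor for 60 min or none. In batches 1 and 2 together, kar4Δ, ste12Δ and WT each had 4 libraries with alpha-factor and 4 frozen at the start of treatment (0 h). The first 2 replicates of each came from batch 1, the last 2 from batch 2. Batch 3 held ime4Δ and WT with 2 libraries per condition, and batch 4 held WT alone, with 2 treated libraries and 2 that waited 60 min without alpha-factor. The sample titles carry a batch number only for batches 1 and 2. Those of batch 3 give no sampling time, so they do not tell when its untreated cells were taken. Each deletion was represented by 1 named strain. Every group, WT included, lacked BAR1, the secreted protease that destroys alpha-factor, and was cyclin-arrested, so none shows recovery as a BAR1 cell would. The labels do not say that replicates came from separate cultures, so p-values measure the spread between these libraries, which may be technical.

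The 36 libraries held 4.25 to 15.6 M counts in batch 1 (M, mega), 8.27 to 12.7 M in batch 2, 9.90 to 17.0 M in batch 3 and 14.8 to 22.6 M in batch 4. KAR4 had at most 2 counts in any kar4Δ library, against 228 to 3303 in the WT libraries of batches 1 and 2. IME4 had 3 to 8 counts in ime4Δ, against 29 to 49 untreated and 2333 to 4095 with alpha-factor in WT of batch 3. With alpha-factor IME4 also had only 24 to 40 counts in kar4Δ, against 1265 to 2503 in WT of batches 1 and 2. The part of this in the kar4Δ results was not tested. STE12 had 3 to 10 counts in the ste12Δ libraries of batch 1 and 23 to 64 in those of batch 2, against 919 to 3144 in WT. BAR1 had at most 2 counts in any library. The receptor gene STE2, a defining marker of mating type a, averaged 1730 ± 238 CPM in WT with alpha-factor and 1567 ± 270 CPM at 0 h (CPM, counts divided by the scaled library total in M counts; SD, n = 4), and STE3, the receptor gene of the other mating type, stood at 1.26 ± 0.188 and 0.657 ± 0.480 CPM. In kar4Δ with alpha-factor all 4 alpha-specific genes measured (STE3, MF(ALPHA)1, MF(ALPHA)2, SAG1) were higher than in WT, with a summed level of 3232 to 3569 CPM against 169 to 252 CPM in WT. At 0 h the same sum was 497 to 684 CPM in kar4Δ and 339 to 386 CPM in WT, and 3 of the 4 genes were called higher in kar4Δ. Of all features, 16.8% were called higher in kar4Δ than in WT with alpha-factor and 5.84% at 0 h, by the test given below. The part of these alpha-specific genes in the kar4Δ results below was not tested. All 6 a-specific genes tested, STE2 among them, were lower in ste12Δ than in WT in both conditions. Their median log2 difference was -3.13 at 0 h and -3.21 with alpha-factor. By the test given below, 11.9% and 28.2% of all features were called lower there. A link to the SST2 level in ste12Δ was not tested.

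Upstream sequence is shown for SST2, whose level at 0 h was far lower in ste12Δ than in WT, and for AFR1 and MSG5, whose response was smaller in both kar4Δ and ste12Δ than in WT. A search of the 500 bases before each start codon in the R64 assembly, the one named sacCer3 in the submitters' processing notes, looked on both strands for the pheromone response element TGAAACA and for the shorter strings GAAACA and TGAAAC, both of which lie within it. The element itself occurred once before SST2, 239 to 245 bases upstream, and once before AFR1, 376 to 382 bases upstream, in both cases on the strand of the gene. The string TGAAAC occurred again before SST2 at 259 to 264 bases on the opposite strand, and again before AFR1 at 460 to 465 bases on the same strand and at 235 to 240 bases on the opposite one. None of the 3 strings occurred before MSG5, PTP2 or PTP3. Of 6000 such windows of all genes, 12% held the element, 37.4% held GAAACA and 30.6% held TGAAAC, and 5.72% held TGAAAC at least 2 times. In the stretches below, each written 5′ to 3′ on the strand of its gene, capitals mark the element or TGAAAC, on either strand. They cover chrXII:1041567-1041666 (minus strand, SST2), chrIV:616371-616630 (minus strand, AFR1) and chrXIV:529642-529791 (plus strand, MSG5, shown as a stretch without a match).
SST2: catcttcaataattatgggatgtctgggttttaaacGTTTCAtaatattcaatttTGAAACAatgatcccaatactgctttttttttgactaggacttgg
AFR1: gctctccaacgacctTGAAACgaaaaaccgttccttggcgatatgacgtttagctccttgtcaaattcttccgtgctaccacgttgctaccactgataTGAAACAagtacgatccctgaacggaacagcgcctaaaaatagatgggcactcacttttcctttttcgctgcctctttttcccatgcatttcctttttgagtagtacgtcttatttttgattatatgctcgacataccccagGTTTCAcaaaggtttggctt
MSG5: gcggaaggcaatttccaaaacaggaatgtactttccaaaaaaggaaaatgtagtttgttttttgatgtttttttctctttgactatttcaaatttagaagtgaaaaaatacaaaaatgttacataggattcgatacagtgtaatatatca
A match is a description of letters and not of a bound site, and the absence of one says only that these letters are not in the window. The windows before SST2, MSG5 and PTP2 reach into the neighbouring gene, which begins or ends 432, 358 and 467 bases away.

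**Figure D1:**
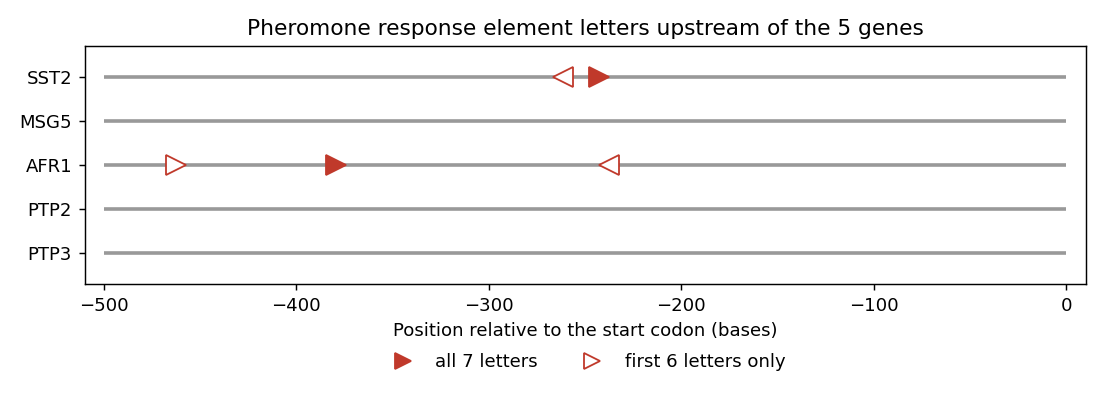
Positions of the pheromone response element letters in the 500 bases before the start codon (at 0) of the 5 genes; filled arrows mark all 7 letters, open arrows the first 6 only, and arrows point right on the gene's strand and left on the opposite strand. SST2 and AFR1 each hold 1 full element, and the other 3 windows hold none.

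The coding sequences, each of 1 exon, lie at chrXII:1039270-1041366 (SST2, minus strand, 2097 bases), chrXIV:529942-531411 (MSG5, plus strand, 1470 bases), chrIV:614288-616150 (AFR1, minus strand, 1863 bases), chrXV:733925-736177 (PTP2, plus strand, 2253 bases) and chrV:308413-311199 (PTP3, minus strand, 2787 bases). No annotated neighbour overlapped any of them, and the next genes on either side lay 259 to 823 bases away. Level differences between genes are given only per kilobase of this coding length.

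The first question was how these transcripts differed between treated and 0 h libraries, and whether that needed KAR4 or STE12. The 0 h libraries were frozen at the start of treatment, so each treated library was also later by the treatment time. A response measured against 0 h thus holds both alpha-factor and the added time in arrest. Only WT had untreated libraries labelled as sampled at the same time as treated ones, in batch 4. For kar4Δ and ste12Δ the part of time alone was not tested. A gene was called where edgeR's quasi-likelihood test gave a Benjamini-Hochberg adjusted p under 0.05 over all features tested. In kar4Δ all 5 genes were called between treated and 0 h libraries, 4 higher and 1 lower, where 65.9% of 6161 features were called (33% higher, 32.8% lower; 2036 and 2022 features, against 1329 and 2938 with library totals in place of TMM scaling). In ste12Δ 4 were called higher and PTP3 was not called, where 32.2% of features were called (17.6% higher, 14.6% lower). In WT 4 were called higher and 1 lower, where 59% of features were called (29% higher, 30% lower; 1788 and 1849 features, against 1183 and 2523 with library totals). Treated and 0 h libraries did not overlap for 5 of the genes in kar4Δ, 3 in ste12Δ and 5 in WT, against 53.2%, 22.6% and 44.6% of all features. Since so many features were called, the sizes are given against all features: in WT, 1.53% of all features rose more than MSG5, 2.66% more than AFR1, 4.3% more than PTP2 and 9.04% more than SST2. For PTP3, which fell, 90.5% of all features had a larger log2 fold change in WT, and 64.2% in WT of batch 4. The median log2 fold change of the 5 genes was 0.89 in kar4Δ, 0.29 in ste12Δ and 1.45 in WT, and that of all features was 0.00, 0.01 and 0.00. These are bulk measurements, in which a change in the share of cells that express a gene and a change in RNA per cell cannot be told apart.

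The difference of 2 strains' responses was tested directly. Against WT, the response in kar4Δ was smaller for 2 of the 5 genes, MSG5 and AFR1, where 18.9% of features differed (8.72% larger, 10.2% smaller; 537 and 630 features, against 334 and 685 with library totals). The response in ste12Δ differed for all 5, smaller for 4 and less negative for PTP3, where 35.9% of features differed (18.3% larger, 17.6% smaller; 1130 and 1084 features, against 1710 and 663 with library totals). Both sets of differences share the WT libraries.

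**Figure D2:**
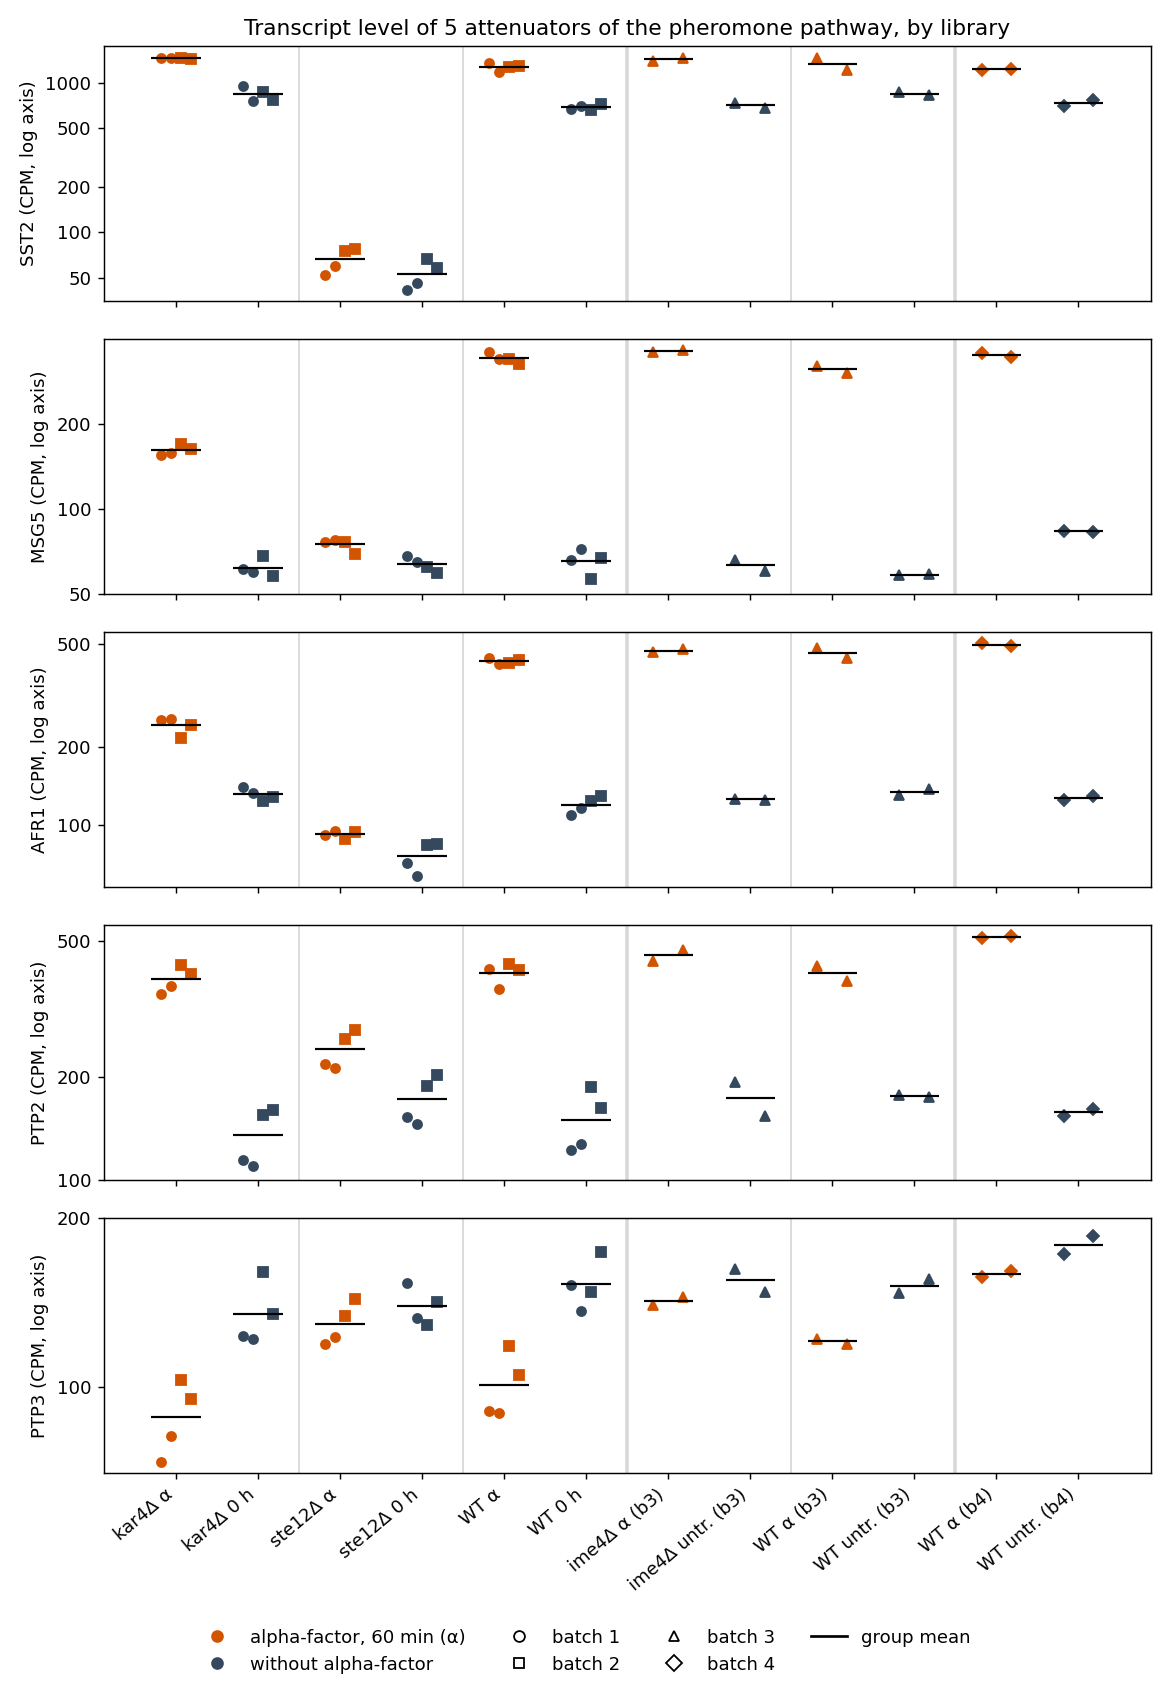
Transcript level (CPM, log axis) of each gene in every library; colours separate libraries with and without alpha-factor, marker shapes the 4 batches, and black bars are group means. SST2 lies at 41.6 to 78.0 CPM in the 8 ste12Δ libraries and at 657 CPM or more in the others, and PTP3 is the only one of the 5 with a lower mean in each treated group than in its untreated group.

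SST2, the G protein regulator, was the most abundant of the 5 per length in kar4Δ and WT and the gene most altered by STE12 loss before any pheromone was added. Its level in kar4Δ was 1464, 1461, 1472 and 1432 CPM with alpha-factor in replicates 1 to 4, against 956, 757, 871 and 769 CPM at 0 h. In ste12Δ it was 52.0, 60.0, 75.7 and 78.0 CPM with alpha-factor, against 41.6, 46.2, 67.0 and 58.0 CPM at 0 h. In WT it was 1352, 1174, 1267 and 1297 CPM with alpha-factor, against 665, 703, 657 and 716 CPM at 0 h. Treated and 0 h libraries did not overlap in kar4Δ or WT and did in ste12Δ, and every ste12Δ library lay far below every library of the other strains.

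The log2 fold change of SST2 with alpha-factor was 0.80 in kar4Δ (SE 0.11, edgeR's adjusted p 1.08e-06), 0.32 in ste12Δ (SE 0.12, adjusted p 0.0387) and 0.89 in WT (SE 0.11, adjusted p 3.51e-07). The response in ste12Δ was smaller than in WT by -0.57 (SE 0.16, edgeR's adjusted p 0.00707), and that in kar4Δ differed by -0.10, with a 95% interval of -0.42 to 0.23. At 0 h SST2 was 13-fold lower in ste12Δ than in WT (log2 -3.70, SE 0.12, edgeR's adjusted p 6.02e-16), the rank 18 from the lowest of 6161 features, and with alpha-factor it was 19.3-fold lower (log2 -4.27). In CPM, treated libraries exceeded those at 0 h by 619 ± 47.7 in kar4Δ, 13.2 ± 8.49 in ste12Δ and 588 ± 39.8 in WT (difference of means ± SE). The ste12Δ response is the least secure of these: it was no longer called when replicate 2 (0.34), 3 (0.27) or 4 (0.25) with alpha-factor or replicate 1 (0.22), 2 (0.27) or 4 (0.34) at 0 h was left out. Within ste12Δ, SST2 was higher in batch 2 than in batch 1, as were the residual STE12 counts given above, and their link was not tested; without the batch 2 libraries of ste12Δ the 0 h difference was -3.99. In kar4Δ the 4 libraries lay above the 4 of WT in both conditions (0.29 at 0 h, edgeR's adjusted p 0.0879; 0.20 with alpha-factor, adjusted p 0.169), and neither was called; the difference with alpha-factor was called (0.23, edgeR's adjusted p 0.0189) when only the groups compared were fitted.

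MSG5, the phosphatase of Fus3 and Slt2, had the largest response of the 5 in WT, and KAR4 loss took part of it away. Its level in kar4Δ was 156, 159, 170.2 and 164 CPM with alpha-factor, against 61.4, 60.1, 68.2 and 58.1 CPM at 0 h. In ste12Δ it was 76.4, 78.0, 76.4 and 69.2 CPM with alpha-factor, against 68.0, 65.0, 62.4 and 59.7 CPM at 0 h. In WT it was 362, 339.6, 339.6 and 328 CPM with alpha-factor, against 66.0, 72.2, 56.7 and 67.4 CPM at 0 h. The 0 h libraries of the 3 strains overlapped, and with alpha-factor the 3 strains formed separate levels, WT the highest and ste12Δ the lowest.

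MSG5 rose by a log2 fold change of 1.39 in kar4Δ (SE 0.07, edgeR's adjusted p 1.74e-14), 0.24 in ste12Δ (SE 0.07, adjusted p 0.00897) and 2.39 in WT (SE 0.07, adjusted p 1.49e-18). The kar4Δ response was smaller than that of WT by -1.0 (SE 0.09, edgeR's adjusted p 3.95e-08; -0.97 in batch 1 and -1.02 in batch 2), and that of ste12Δ by -2.15 (SE 0.09, adjusted p 1.86e-14). In CPM, treated libraries exceeded those at 0 h by 100.2 ± 3.84 in kar4Δ, 11.3 ± 2.66 in ste12Δ and 277 ± 7.80 in WT. At 0 h the difference from WT was -0.08 in kar4Δ (95% interval -0.22 to 0.06) and -0.04 in ste12Δ (-0.18 to 0.10), and neither was called. The small ste12Δ response was not called in batch 1 alone (0.20) or batch 2 alone (0.26).

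AFR1, which acts on the receptor and on projection shape, followed MSG5 in its dependence on both factors and differed from it in having a STE12-dependent level before treatment. Its level in kar4Δ was 254, 257, 217 and 243 CPM with alpha-factor, against 139, 132, 124 and 128 CPM at 0 h. In ste12Δ it was 91.1, 94.7, 88.2 and 93.4 CPM with alpha-factor, against 70.8, 63.5, 83.2 and 84.0 CPM at 0 h. In WT it was 441, 419, 420.1 and 431 CPM with alpha-factor, against 108, 116, 123 and 129 CPM at 0 h. Treated and 0 h libraries were separate in all 3 strains, and the ste12Δ libraries lay below those of WT in both conditions.

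The log2 fold change of AFR1 was 0.89 in kar4Δ (SE 0.08, edgeR's adjusted p 3.65e-10), 0.29 in ste12Δ (SE 0.08, adjusted p 0.00685) and 1.84 in WT (SE 0.08, adjusted p 1.72e-15). The response was smaller than in WT by -0.95 in kar4Δ (SE 0.11, edgeR's adjusted p 6.47e-07) and by -1.56 in ste12Δ (SE 0.11, adjusted p 6.46e-11). In CPM, treated libraries exceeded those at 0 h by 112 ± 9.72 in kar4Δ, 16.5 ± 5.17 in ste12Δ and 309 ± 6.84 in WT. At 0 h AFR1 was 1.58-fold lower in ste12Δ than in WT (log2 -0.66, SE 0.08, edgeR's adjusted p 8.11e-07) and differed by 0.13 in kar4Δ (95% interval -0.03 to 0.29, not called). The ste12Δ response was 0.47 in batch 1 alone and 0.12, no longer called, in batch 2 alone.

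PTP2, the nuclear tyrosine phosphatase, rose as much without KAR4 as with it within the error. Without STE12 it was still higher in treated than in 0 h libraries, by less, and the part of time in this was not tested. Its level in kar4Δ was 350.2, 368, 426 and 399.8 CPM with alpha-factor, against 114, 110.2, 155 and 161 CPM at 0 h. In ste12Δ it was 218, 212, 258 and 275 CPM with alpha-factor, against 153, 146, 189 and 203 CPM at 0 h. In WT it was 414, 362, 429 and 411 CPM with alpha-factor, against 122, 127, 188 and 162 CPM at 0 h. Treated and 0 h libraries were separate in all 3 strains, and in each strain the 2 libraries of batch 2 lay above the 2 of batch 1 at 0 h.

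PTP2 rose by a log2 fold change of 1.53 in kar4Δ (SE 0.07, edgeR's adjusted p 2.13e-14), 0.48 in ste12Δ (SE 0.07, adjusted p 3.1e-05) and 1.45 in WT (SE 0.07, adjusted p 8.24e-14). The WT response was 1.63 in batch 1 and 1.27 in batch 2. The kar4Δ response differed from that of WT by 0.09 (95% interval -0.13 to 0.30), and that of ste12Δ was smaller by -0.96 (SE 0.10, edgeR's adjusted p 1.33e-07; -1.11 in batch 1 and -0.82 in batch 2). The rise in ste12Δ was the largest of the 5 there and kept its call in all 35 alternatives run. At 0 h PTP2 was 0.21 higher in ste12Δ than in WT (SE 0.07, edgeR's adjusted p 0.047), with overlapping libraries; the call was lost in 30 of 35 alternatives, where the adjusted p ranged over all 35 from 0.000435 to 0.394, among them the omission of any library other than replicates 1 and 4 of WT with alpha-factor and replicate 3 of WT at 0 h (0.16 to 0.22).

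PTP3, the cytoplasmic tyrosine phosphatase, moved the other way. Its level in kar4Δ was 73.6, 81.7, 103 and 95.4 CPM with alpha-factor, against 123, 122, 159.9 and 135 CPM at 0 h. In ste12Δ it was 119, 123, 134 and 143 CPM with alpha-factor, against 153, 133, 129 and 142 CPM at 0 h. In WT it was 90.5, 89.7, 118 and 105 CPM with alpha-factor, against 152, 137, 147 and 174 CPM at 0 h. Treated libraries lay below every 0 h library in kar4Δ and WT, and the ste12Δ conditions overlapped.

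PTP3 fell by 0.61 on the log2 scale in kar4Δ (SE 0.09, edgeR's adjusted p 1.06e-06) and by 0.60 in WT (SE 0.09, adjusted p 2.56e-06), and its value in ste12Δ was -0.11 (95% interval -0.28 to 0.06, not called). The ste12Δ response differed from that of WT by 0.48 (SE 0.12, edgeR's adjusted p 0.00258), and the kar4Δ response by -0.02 (95% interval -0.26 to 0.23). With alpha-factor PTP3 was 1.29-fold higher in ste12Δ than in WT (log2 0.36, edgeR's adjusted p 0.000764), with no overlap between the libraries. The kar4Δ difference with alpha-factor was -0.19 and not called, and became a call (-0.24, edgeR's adjusted p 0.0495) when replicate 3 of kar4Δ with alpha-factor was left out.

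**Figure D3:**
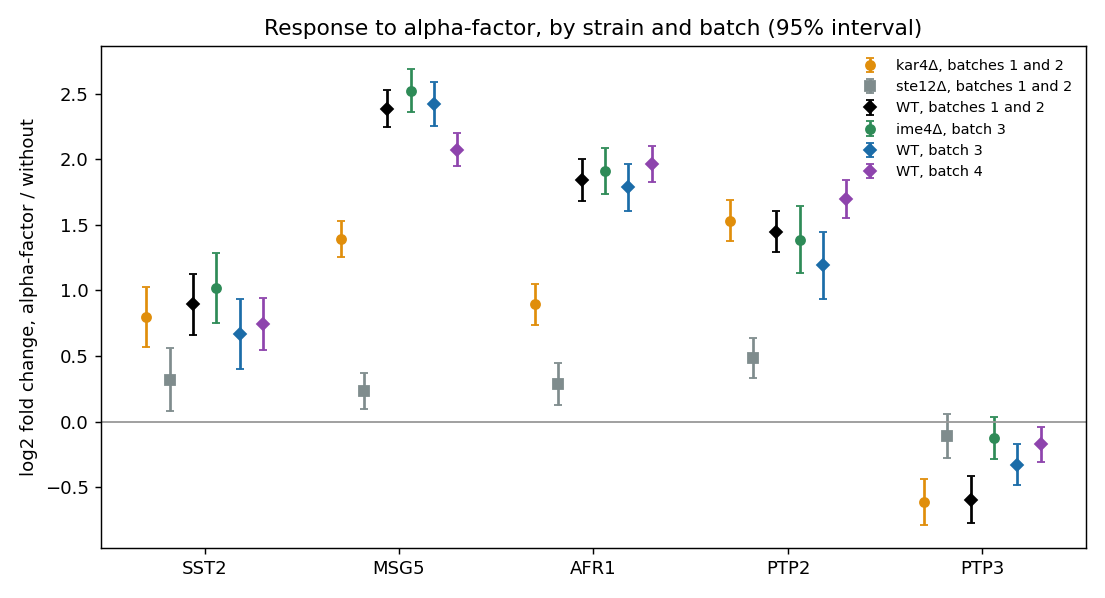
Log2 fold change of each gene with alpha-factor against without, by strain and batch (points), with 95% intervals from edgeR (bars). MSG5 and AFR1 show 3 levels, WT and ime4Δ highest, kar4Δ between and ste12Δ lowest, while for SST2 and PTP2 the kar4Δ interval overlaps that of WT.

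The levels of the strains were also set against each other within each condition. At 0 h, kar4Δ differed from WT in 0 of the 5 genes, where 12% of features were called (5.84% higher, 6.12% lower); unadjusted p was under 0.05 for SST2 and PTP3, and DESeq2 also called 0. Libraries were separate for SST2 alone, as for 11% of features. With alpha-factor kar4Δ differed in 2, both lower, where 37.9% of features were called (16.8% higher, 21.1% lower; 1033 and 1299 features, against 705 and 1496 with library totals): MSG5 was 2.11-fold lower (log2 -1.08, SE 0.06, edgeR's adjusted p 4.38e-12) and AFR1 1.76-fold lower (log2 -0.82, SE 0.07, adjusted p 7.31e-09). Libraries were separate for these and SST2, as for 28.8% of features. At 0 h, ste12Δ differed from WT in 3, SST2 and AFR1 lower and PTP2 higher, where 22.5% of features were called (10.6% higher, 11.9% lower; 656 and 733 features, against 2366 and 296 with library totals), and libraries were separate for SST2 and AFR1, as for 17.6% of features. With alpha-factor ste12Δ differed in all 5, 4 lower and PTP3 higher, where 59.1% of features were called (30.9% higher, 28.2% lower; 1906 and 1735 features, against 3650 and 774 with library totals). MSG5 was 4.56-fold lower (log2 -2.19), AFR1 4.65-fold lower (log2 -2.22) and PTP2 1.69-fold lower (log2 -0.76). Libraries were separate for all 5, as for 43.7% of features. Without STE12, SST2 was thus already low at 0 h, MSG5 was near its WT level at 0 h and far below it with alpha-factor, and AFR1 was lower in both conditions.

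**Figure D4:**
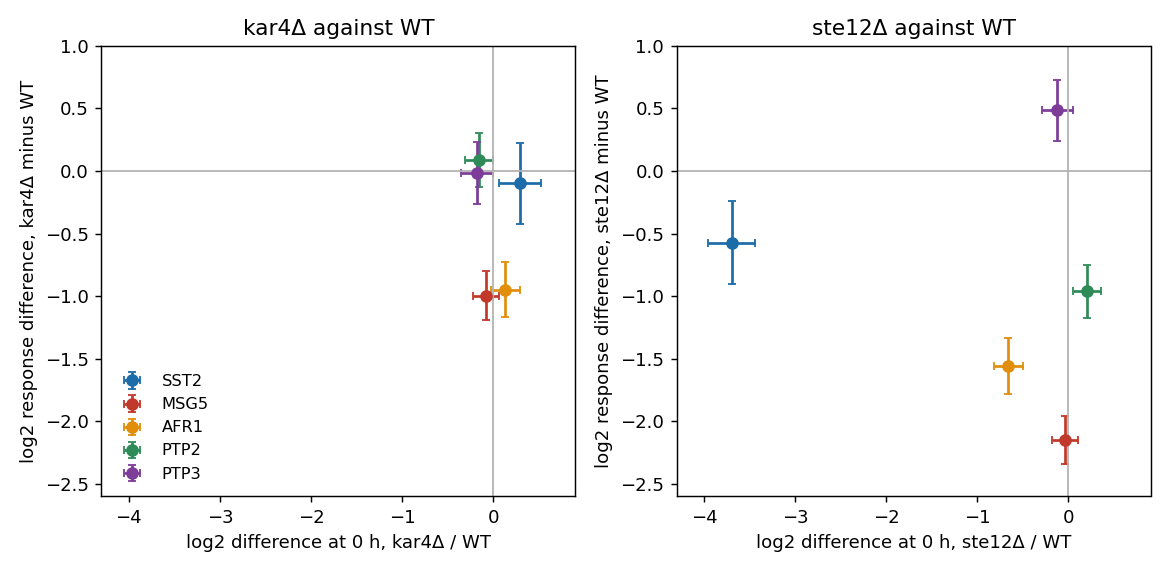
For each gene, the log2 difference from WT at 0 h (horizontal axis) and the difference of the alpha-factor response from that of WT (vertical axis), for kar4Δ on the left and ste12Δ on the right, with 95% intervals from edgeR. SST2 stands at -3.70 on the horizontal axis in ste12Δ, whereas MSG5 stands near 0 there and at -2.15 on the vertical axis.

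Per kilobase of coding length, the order of the 5 levels changed with strain and treatment. In kar4Δ with alpha-factor SST2 (695 CPM per kb) was followed by PTP2 (171), AFR1 (130.3), MSG5 (110.3) and PTP3 (31.7), each separate from the next. In ste12Δ PTP2 was highest in both conditions (107 CPM per kb with alpha-factor, 76.6 at 0 h) and SST2 lowest (31.7 and 25.4). In WT with alpha-factor SST2 (607 CPM per kb) came first, MSG5 (233) and AFR1 (229.6) overlapped, and PTP2 (179) and PTP3 (36.2) followed without overlap. At 0 h in WT SST2 (327 CPM per kb) stood alone, and PTP2 (66.5), AFR1 (64.0), PTP3 (54.7) and MSG5 (44.6) overlapped with their neighbours in that order.

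The role of IME4 was asked in batch 3, where 2 libraries stood in each group. Between ime4Δ and WT, 0 of the 5 genes were called untreated, with alpha-factor or in the response difference, where 0.0325%, 0.227% and 0.0162% of 6156 features were called (with alpha-factor 0.195% higher and 0.0325% lower, 12 and 2 features, against 12 and 4 with library totals; the 2 calls untreated and the 1 in the response difference were lower, against 2 higher and 2 lower untreated with library totals). Without adjustment, p was under 0.05 for MSG5 (0.0121) and PTP3 (0.00816) with alpha-factor in edgeR's test and for none in the other comparisons, and DESeq2 also called 0. MSG5 had 361 and 366 CPM in ime4Δ with alpha-factor, against 322 and 304 CPM in WT. PTP3 had 139.7 and 144 CPM in ime4Δ with alpha-factor, against 122 and 119 CPM in WT. Both pairs were separate, by 0.22 (95% interval 0.06 to 0.37) for MSG5 and 0.24 (0.08 to 0.39) for PTP3 on the log2 scale. Libraries did not overlap for 3 of the 5 genes untreated and 3 with alpha-factor, against 36.6% and 55% of all features.

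Within batch 3, alpha-factor gave 4 calls higher and none lower in ime4Δ, where 55.5% of features were called (27.6% higher, 27.9% lower; 1697 and 1718 features, against 948 and 2929 with library totals), and 4 higher and 1 lower in WT, where 55.1% were called (27.4% higher, 27.7% lower; 1687 and 1704 features, against 1125 and 2207 with library totals). Libraries were separate for all 5 genes in both strains, as for 80.8% of features in ime4Δ and 77.5% in WT. SST2 had 1396 and 1464 CPM with alpha-factor in ime4Δ, against 733 and 680.0 CPM untreated (log2 fold change 1.02), and 1467 and 1216 CPM with alpha-factor in WT, against 865 and 824 CPM untreated (0.67). The difference of these SST2 responses was 0.35 (95% interval -0.02 to 0.72, edgeR's adjusted p 0.621). MSG5 changed by 2.52 in ime4Δ and 2.42 in WT, AFR1 by 1.91 and 1.79, and PTP2 by 1.39 and 1.19. PTP3 fell by 0.33 in WT (edgeR's adjusted p 0.0034), and its value in ime4Δ was -0.13 (adjusted p 0.152).

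In batch 4 both conditions were sampled after 60 min. All 5 genes were called, 4 higher and PTP3 lower, where 57.8% of 6272 features were called (28.9% in each direction; 1810 higher and 1813 lower, against 1387 and 2369 with library totals), and their libraries were separate, as for 78.7% of features. SST2 had 1221 and 1232 CPM with alpha-factor, against 704 and 761 CPM after 60 min without it (log2 0.74). MSG5 had 357 and 346 CPM with alpha-factor, against 84.0 and 83.1 CPM without (log2 2.07). PTP3 had 157 and 161 CPM with alpha-factor, against 173 and 186 CPM without (log2 -0.17, edgeR's adjusted p 0.0336). That call was lost without replicate 1 (-0.15) or 2 (-0.20) with alpha-factor or replicate 2 without (-0.12). It was also lost with DESeq2 (-0.17, DESeq2's adjusted p 0.0973). AFR1 and PTP2 rose by 1.96 and 1.70. Against batches 1 and 2, the WT response of batch 4 differed for 2 genes, where 16.5% of features differed (8.84% larger, 7.69% smaller; 554 and 482 features, against 495 and 271 with library totals): it was smaller for MSG5 (-0.32, SE 0.10, edgeR's adjusted p 0.03) and less negative for PTP3 (0.41, SE 0.13, adjusted p 0.0303). Neither difference was called once any 1 of the 4 batch 4 libraries was left out (-0.34 to -0.30 for MSG5, 0.36 to 0.47 for PTP3), and the MSG5 difference was also lost without replicate 3 of WT at 0 h (-0.26) and that of PTP3 without replicate 1 (0.38) or 2 (0.39) with alpha-factor or replicate 1 (0.38) or 4 (0.38) at 0 h. The waiting time and the batch cannot be told apart here.

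The lists that follow are to be read against the share of all features called, which was 65.9% in kar4Δ (33% higher, 32.8% lower), 32.2% in ste12Δ (17.6% and 14.6%) and 59% in WT (29% and 30%).

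The pathway these genes restrain was read from a list of 13 components from receptor to Ste12. In kar4Δ 8 of the 13 rose with alpha-factor and none fell; in ste12Δ 1 rose and 3 fell; in WT 8 rose and 1 (STE20, -0.30) fell. The median was 0.38, -0.07 and 0.19, against 0.00, 0.01 and 0.00 over all features. FUS3, the MAP kinase that Msg5, Ptp2 and Ptp3 dephosphorylate, rose by 1.78 in kar4Δ and 1.35 in WT and had a value of -0.05 in ste12Δ, and its response in kar4Δ exceeded that of WT by 0.43 (SE 0.10, edgeR's adjusted p 0.00335). MSG5, which acts on it, thus had a smaller response in kar4Δ while FUS3 had a larger one. In batch 3 FUS3 rose by 2.07 in ime4Δ and 1.24 in WT, and MSG5 by 2.52 and 2.42. With alpha-factor FUS3 was 0.63 higher in ime4Δ than in WT (edgeR's adjusted p 0.0434). The difference of these FUS3 responses was 0.83 and not called (edgeR's adjusted p 0.169). GPA1, the target of Sst2, was lower by -1.64 in ste12Δ than in WT at 0 h (edgeR's adjusted p 7.28e-15), and its response was 0.38 in kar4Δ, -0.09 in ste12Δ (not called) and 0.41 in WT.

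Other attenuators were given by 8 genes, of which BAR1 is deleted and was not tested. In kar4Δ 5 of the other 7 rose with alpha-factor and 1 fell, in ste12Δ 1 rose and 1 fell, and in WT 3 rose and 3 fell. Of all features, 65.9%, 32.2% and 59% were called. DIG2, a repressor of Ste12, rose by 3.26 in kar4Δ, 0.42 in ste12Δ and 3.53 in WT. DIG1, the related repressor, rose by 0.64 in kar4Δ and fell by 0.27 in WT, a difference of 0.91 (SE 0.07, edgeR's adjusted p 8.54e-10). In batch 3 DIG1 rose by 0.38 in ime4Δ and fell by 0.28 in WT. With alpha-factor it was 0.75 higher in ime4Δ than in WT (edgeR's adjusted p 0.00956). The difference of these DIG1 responses was 0.66 and not called (edgeR's adjusted p 0.293). ASG7, which inhibits signalling by Ste4, rose by 2.72 in kar4Δ and 3.99 in WT, and the kar4Δ response was smaller by -1.28 (SE 0.35, edgeR's adjusted p 0.0109).

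Among 14 relatives of the 5 proteins, 4 rose and 5 fell in kar4Δ, 3 rose and 3 fell in ste12Δ, and 3 rose and 4 fell in WT, against 65.9%, 32.2% and 59% of all features called. PTP1, the third tyrosine phosphatase, rose by 1.27 in kar4Δ, 0.38 in ste12Δ and 1.01 in WT. SDP1, the paralog of MSG5, fell by 0.67 in WT of batches 1 and 2, and YER158C, the paralog of AFR1, by 0.64 (edgeR's adjusted p 0.0248 and 5.11e-05), against rises of 2.39 for MSG5 and 1.84 for AFR1. The other WT batches differed from this: SDP1 had values of 0.22 in batch 3 and -0.15 in batch 4, neither called, and YER158C fell by 0.59 in batch 3 and had a value of -0.03, not called, in batch 4.

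Msg5 also acts on Slt2, and Ptp2 on Slt2 and Hog1, so genes tied to both kinases were counted, those of the kinases themselves included. Of 10 genes of cell-wall integrity, 8 rose and 2 fell in kar4Δ, 7 rose and 0 fell in ste12Δ, and 7 rose and 2 fell in WT, with medians of 1.5, 0.35 and 1.46, against 65.9%, 32.2% and 59% of all features called. SLT2 rose by 1.46 in kar4Δ, 0.27 in ste12Δ and 1.54 in WT, and RLM1, the transcription factor under Slt2, by 1.13, 0.23 and 0.97. Of 7 genes, HOG1 and genes of Hog1 output, 4 rose and 2 (HOG1, -0.24, and CTT1, -0.65) fell in kar4Δ. In ste12Δ 2 rose and 1 (HOG1, -0.19) fell, and in WT 5 rose and 1 (HOG1, -0.30) fell. The medians were 0.64, 0.16 and 0.97, against the same 65.9%, 32.2% and 59% of all features called. No gene of the list other than HOG1 was thus called lower in ste12Δ or WT.

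Likeness of pattern was described by Pearson's r of log2 CPM over 18 means per group and batch, which share libraries and depth, among 6101 features. Each mean was first centred within its batch on the average of the WT means with and without alpha-factor. Closest to SST2 were GPA1 (0.995), FAR1 (0.993) and STE12 (0.989). Closest to MSG5 were PGM1 (0.994), VID28 (0.992) and SUL1 (0.988), and closest to AFR1 were YBR089W (0.989), YJL113W (0.988) and INP52 (0.988). Closest to PTP2 were RLM1 (0.993), SRL3 (0.989) and SHE4 (0.988), and closest to PTP3 were TDA4 (0.969), FLC3 (0.953) and PTR2 (0.951). Among the 5 genes themselves r was highest for MSG5 and AFR1 (0.96) and for MSG5 and PTP2 (0.91), it was 0.36 for SST2 and PTP2, and PTP3 had a negative r with each of the others (-0.78 to -0.45). STE12 was deleted in the cells of 4 of the 18 means.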

How the data were processed

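The authors deposited expected counts per annotated feature, not normalized, in 44 columns; 24.5% of the values are whole numbers. Per the labels' protocols, total RNA was depleted of ribosomal RNA, made into stranded libraries and read at 50 nt. Per the submitters' processing notes, STAR and featureCounts were used with sacCer3; versions, annotation, strand setting and the handling of shared reads are not given in the sources used here. All columns were mapped to samples by name (0 unmapped).

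Columns numbered 1 and 3, and those numbered 2 and 4, of a batch 3 group differed by less than sampling noise (chi-square per degree of freedom 0.444 to 0.701 in 8 pairs, against 5.29 to 73.2 in 30 other pairs within a batch and 32.5 to 177 in 24 across batches). Their mean was counted as 1 sample, which left 36 libraries. Expected counts were rounded to whole numbers, filtered with filterByExpr (minimum count 10, minimum total 15), scaled by TMM and tested with glmQLFit and glmQLFTest of edgeR 4.0.16 (limma 3.58.1, R 4.3.3), with Benjamini-Hochberg adjustment. The 24 libraries of batches 1 and 2 shared a model with a batch covariate, batches 3 and 4 had a model each, and all 36 entered that for the difference between batches. CPM were taken from TMM-scaled totals. DESeq2 1.42.0 was an alternative, as were other scaling, filters, batch terms, a replicate block and the omission of each library. The code was tested on simulated data.

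The genes and lists were chosen with earlier results of these data known, and the string TGAAAC was added after the sequences were seen. Named were the 5 genes, the deleted genes, list members on which a result turns and the 3 features most like each gene. Treated and untreated cells were parts of split cultures per the labels' protocols, but no label ties a replicate number to a culture.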

Additional observations from a re-analysis of the deposited data

Results flagged for a closer look

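Responses to alpha-factor differed between strains by the test of the difference itself (edgeR, Benjamini-Hochberg adjusted). In kar4Δ against WT the log2 differences were -1.0 for MSG5 and -0.95 for AFR1. In ste12Δ against WT they were -0.57 for SST2, -2.15 for MSG5, -1.56 for AFR1, -0.96 for PTP2 and 0.48 for PTP3. Between WT of batch 4 and WT of batches 1 and 2 they were -0.32 for MSG5 and 0.41 for PTP3. No library stood apart in any of the 30 groups of 4 values examined, by a rule that sets the gap at either end against the range. Each group mixed 2 libraries of batch 1 with 2 of batch 2 and was not adjusted for batch. The rule could therefore miss a library that deviates within its batch.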

How the results depend on the processing

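Of 2130 alternative values of the 80 results of single genes, 2055 kept their direction and side of the threshold, 64 lost the call, 11 gained one and 0 changed sign while called. In batches 1 and 2 the WT and kar4Δ responses kept all 5 calls throughout, the kar4Δ response difference its 2, and the alpha-factor difference of ste12Δ its 5. The 4 ste12Δ response calls became 2 with library totals, in batch 1 alone and in batch 2 alone. The ime4Δ comparisons, 0 calls each, gave 1 with alpha-factor when only the groups compared were fitted, and 1 untreated, 2 with alpha-factor and 2 in the response difference with the repeat columns as separate replicates. The 2 calls of the batch 4 difference became 1 with library totals and 1 without a filter, and 0 to 2 when 1 library was left out. The response difference of SST2 in ste12Δ was -0.54 (adjusted p 0.0508) in batch 1 alone. Library totals shifted the median of all features by -0.17 in the WT response, -0.23 in kar4Δ, 0.16 in the ste12Δ response difference, and 0.21 and 0.36 in ste12Δ against WT at 0 h and with alpha-factor. The count over all features moved by over 1.5 times in several comparisons: for kar4Δ against WT at 0 h it was 737, against 404 with library totals, 99 without a batch term, 152 in batch 2 and 390 to 471 without replicate 2 of kar4Δ or replicate 1 or 2 of WT; for ste12Δ against WT at 0 h 1389, against 2662, 746 and 732 in the first 3 settings; for the ste12Δ response 1986, against 1153 without a batch term and 1257 in batch 2; for the kar4Δ response difference 1167, against 742 to 751 in single batches or without a batch term. For ime4Δ against WT with alpha-factor it was 14, against 37 with DESeq2 and 1479 with separate columns, and for the batch 4 difference 1036, against 596 to 670 without either treated library or untreated replicate 2 of batch 4.

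Deviations of same-numbered samples correlated at 0.12 to 0.41 in all 15 pairs of groups of batch 1, at -0.26 to 0.37 in the 15 of batch 2, at -0.27 (ime4Δ) and 0.42 (WT) in batch 3 and at 0.24 in batch 4. The numbers were not taken to pair the samples, since not every pair passed 0.1. With a replicate block, PTP2 in ste12Δ against WT at 0 h was 0.21 and no longer called (adjusted p 0.0611), and no other call of the 5 genes changed. Exchanged ime4Δ numbers, chosen after seeing the data, gave 4 calls over all features in the response difference, against 1. The omission of the batch 2 ste12Δ libraries, also chosen after seeing the data, lost the MSG5 response in ste12Δ (0.22) and PTP2 at 0 h (0.15). For batch 4 alone, only the groups compared were fitted from the start. Ranked by CPM without length, MSG5 had rank 4 and AFR1 rank 2 in WT with alpha-factor. The cause of these changes was not tested.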
